A study of Sus scrofa with 10 samples.

Results

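The cells described here are the radial glia of the first 2 of the 3 whole cell libraries made at embryonic day (E) 60 of the pig, named E60_1 and E60_2. Their members were chosen from the raw counts by marker genes. A cell was a member if it held at least 3 transcript counts (unique molecular identifiers, UMIs) of SOX2, SOX9, HES1 and HOPX together and at least 1 of SOX2 or SOX9. It could hold at most 4 UMIs of AQP4, 1 of GAD1 and GAD2, 2 of PDGFRA, CSPG4 and OLIG1, 2 of COL1A1, CLDN5 and RGS5, and 5 of C1QA and C1QB. These limits were set against astrocytes, GABAergic neurons, oligodendrocyte precursors, vascular cells and microglia, but cells with a few UMIs of these genes could still pass. HOPX and CLDN5 had no row in the files, so both sums rest on the genes that remained. The rule found 303 cells, 49 of the 8171 cells of E60_1 and 254 of the 3479 cells of E60_2, among 28229 cells in all 10 libraries.

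The study captured single cells of the medial entorhinal cortex (MEC), the part of the cortex that links the neocortex and the hippocampus, from crossbred pigs. Whole cells came from fetuses at E50 (E50_1, 3 pooled brains), E60 (E60_1 and E60_2, 1 brain each, and E60_3, 2 brains) and E70 (E70_1, 2 brains, and E70_2 and E70_3, 1 brain each) and from the adult brain, and nuclei from E70 and the adult. No transgene or treatment is given for any group. The study's methods place the 3 E60 libraries in 3 batches, so animal, dissection and batch cannot be told apart within this age. The same rule found 1128 cells in the 5 other fetal whole cell libraries, which were 723 in E50_1, 206 in E60_3, 181 in E70_3 and 9 each in E70_1 and E70_2, and 13 in the adult and nuclei libraries together.

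Radial glia are the stem cells of the developing brain. Their cell bodies line the ventricle, a long fibre reaches the outer surface, and they divide to give neurons first and glia later. SOX2 and SOX9 are transcription factors that maintain the progenitor state, and HES1 is a target of Notch signalling that represses neuron formation. Radial glia of each brain region also express regional transcription factors laid down by early patterning. LHX2, EMX1, EMX2, DMRTA2 and FEZF2 mark the cortex, and EN2, PAX3, PAX7 and DBX1 mark parts of the midbrain, hindbrain and diencephalon. The question was what these cells of E60_1 and E60_2 express, and where they differ from the cells that the same rule finds in the other fetal libraries.

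The members had a median of 3680 UMIs in E60_1 and 5399.5 in E60_2, and summed to 212279 and 1554844 UMIs. A single UMI was therefore worth 4.71 counts on a total scaled to 1000000 UMIs (CPM) in E60_1 and 0.643 CPM in E60_2, and a count of 0 allows up to 3 UMIs, or 14.1 and 1.93 CPM. In E70_1 and E70_2, with 9 cells each, 1 UMI was worth 6.01 and 7.85 CPM. Most members lay at the edge of the rule, as 83.7% in E60_1 and 56.7% in E60_2 held exactly 3 UMIs of the marker genes. Cells just outside held 2 UMIs and cells just inside held 3. VIM was at 1288 CPM outside and 1401 CPM inside in E60_1, and at 1353 and 1488 CPM in E60_2, while FABP7 was at 2576 and 3337 CPM in E60_1 and at 1178 and 1269 CPM in E60_2. Of the members, 4 in E60_1 and 10 in E60_2 carried a cell barcode that another library also held, and Scrublet, which looks for droplets with 2 cells, called 4 of the 49 members in E60_1. It called none of the 3479 cells of E60_2, so doublets were not assessed there.

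The rule kept a smaller share of the cells of E60_1 than of E60_2. Members made up 0.600% of its cells (exact Clopper-Pearson 95% interval 0.444% to 0.792%) and 7.30% of E60_2 (6.46% to 8.22%). The share was 7.64% in E60_3, 1.83%, 1.46% and 5.80% in E70_1, E70_2 and E70_3, and 13.1% in E50_1. Intervals of this kind cover counting error only. The E60 libraries averaged 5.18% ± 3.97 (SD, n = 3) and the E70 libraries 3.03% ± 2.41 (SD, n = 3), and the groups overlapped. The difference of 2.15 percentage points was within the spread of the libraries (two-sided exact permutation test, p = 0.4, where 3 against 3 cannot go below 0.1). With every cell drawn down to 2000 UMIs before the rule was applied, the share was 0.428% in E60_1, 1.24% in E60_2, 1.37% in E60_3 and 0.203%, 0.810% and 1.25% in E70_1, E70_2 and E70_3, so E60_1 was no longer the lowest library. The difference between E60 and E70 was then 0.258 percentage points (two-sided exact permutation test, p = 0.6). A further 494 cells in E60_1 and 128 in E60_2 met every other limit and held over 4 UMIs of AQP4, the astrocyte water channel, and were not counted as members.

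Several genes known from radial glia were found in the members above the background, and others were low or at 0. With each cell drawn down to 2000 UMIs, VIM, the intermediate filament of radial fibres, was found in 79.6% of the members of E60_1 and 87.8% of E60_2. FABP7, the brain lipid-binding protein of radial glia, was found in 89.8% and 73.2%, PTPRZ1, a receptor phosphatase, in 95.9% and 82.3%, and SLC1A3, the glutamate transporter GLAST, in 57.1% and 59.1%. Microglia were used as a measure of the background of free RNA. They were taken as cells with over 5 UMIs of C1QA and C1QB and none of the rule's progenitor genes, at a median of 4558 UMIs in E60_1 and 5140 in E60_2. In the 1052 and 364 such cells the shares were 11.6% and 27.7% for VIM, 19.9% and 20.1% for FABP7, 17.8% and 21.4% for PTPRZ1 and 11.7% and 14.8% for SLC1A3, all below the members. Before cells were drawn down, VIM was found in 91.8% and 97.6% of the members and FABP7 in 89.8% and 91.7%. The neuronal gene STMN2 was found in 18.4% of E60_1 and 11.4% of E60_2 members, against 9.98% and 12.9% of microglia, so in E60_2 it was at background. NES, the filament nestin of neural progenitors, gave 0 UMIs in E60_1 and was at 49.5 CPM in E60_2, against 95.04, 30.8 and 30.8 CPM in E50_1, E60_3 and E70_3 and 0 and 7.85 CPM in E70_1 and E70_2. MOXD1 was at 0 and 2.57 CPM in the pair and 9.08 to 39.3 CPM elsewhere, and FAM107A, which is known from outer radial glia, at 4.71 and 7.07 CPM against 0 to 45.4 CPM. Of the 26 radial glia genes listed, 5 were at 0 in E60_1 and 3 in E60_2, and none of the 23 that reached 10 CPM in a library was called in the count described below of genes apart from the other libraries.

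**Figure D1:**
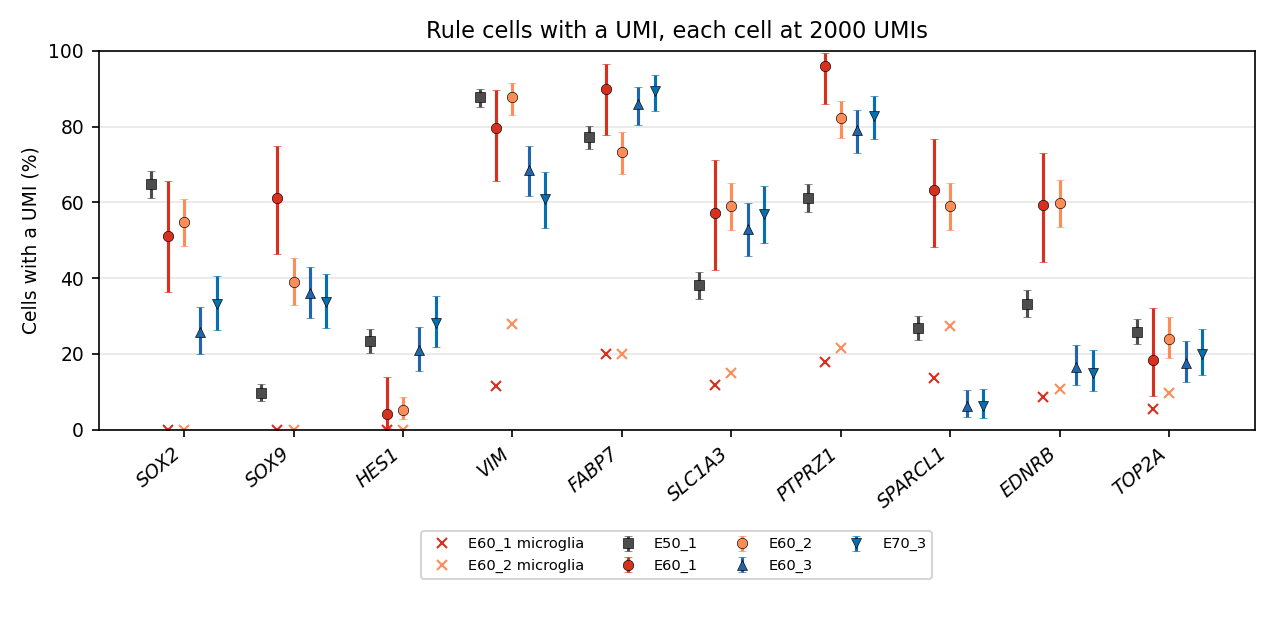
Share of rule cells with at least 1 UMI of a gene (percent) after every cell was drawn down to 2000 UMIs, in the 5 fetal libraries with at least 10 rule cells, with exact 95% intervals; crosses give microglia of E60_1 and E60_2. SPARCL1 and EDNRB lie between 59.1% and 63.3% in E60_1 and E60_2, HES1 lies at 4.08% and 5.12% there and above 20% in the other 3 libraries, and the intervals of TOP2A overlap.

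Among the rule's own genes, which chose the cells and are given as a description, SOX2 and SOX9 carried the members and HES1 hardly did. SOX2 was at 363 CPM in E60_1 and 370 CPM in E60_2, and SOX9 at 349 and 211 CPM. HES1 was at 23.6 and 30.9 CPM in the pair and at 137, 131, 30.1, 47.1 and 171 CPM in E50_1, E60_3, E70_1, E70_2 and E70_3, so E70_1 lay within the pair. It was found in 4 of 49 members (8.16%) and 40 of 254 members (15.7%). Both SOX2 and SOX9 were found in 30 members of E60_1 (61.2%) and 179 of E60_2 (70.5%). AQP4 reached 448 CPM in E60_1 and 188 CPM in E60_2 in spite of the limit, with 198 and 79.6 CPM in the microglia.

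The cortical genes LHX2, DMRTA2, FEZF2, EMX1 and EMX2 were near 0 in the members, although the tissue is labelled as entorhinal. LHX2, a LIM homeobox selector of cortical identity (chromosome 1 of Sscrofa11.1, 264900931 to 264920888), gave 0 UMIs in both libraries, against 84.9, 175, 78.1, 47.1 and 159 CPM in E50_1, E60_3, E70_1, E70_2 and E70_3. All 5 other libraries lay above the limits of 14.1 and 1.93 CPM that the depth of the pair allows. DMRTA2, a repressor that maintains cortical progenitors, and FEZF2, which specifies deep-layer neurons, also gave 0 UMIs in both libraries. The other libraries held DMRTA2 at 75.4, 88.6, 24.0, 47.1 and 35.9 CPM, in the same order. EMX2, which patterns the medial and caudal cortex (chromosome 14, 127649675 to 127656972), gave 1 UMI in each of E60_1 and E60_2 (4.71 and 0.643 CPM), and lay between 15.7 and 81.5 CPM elsewhere. PAX6, a progenitor factor of the cortex that other regions also use, was low but present, at 28.3 and 9.65 CPM against 47.1 to 160 CPM. EOMES, the marker of the intermediate progenitors that cortical radial glia produce, gave 0 UMIs in the pair and 8.56 to 157 CPM elsewhere.

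**Figure D2:**
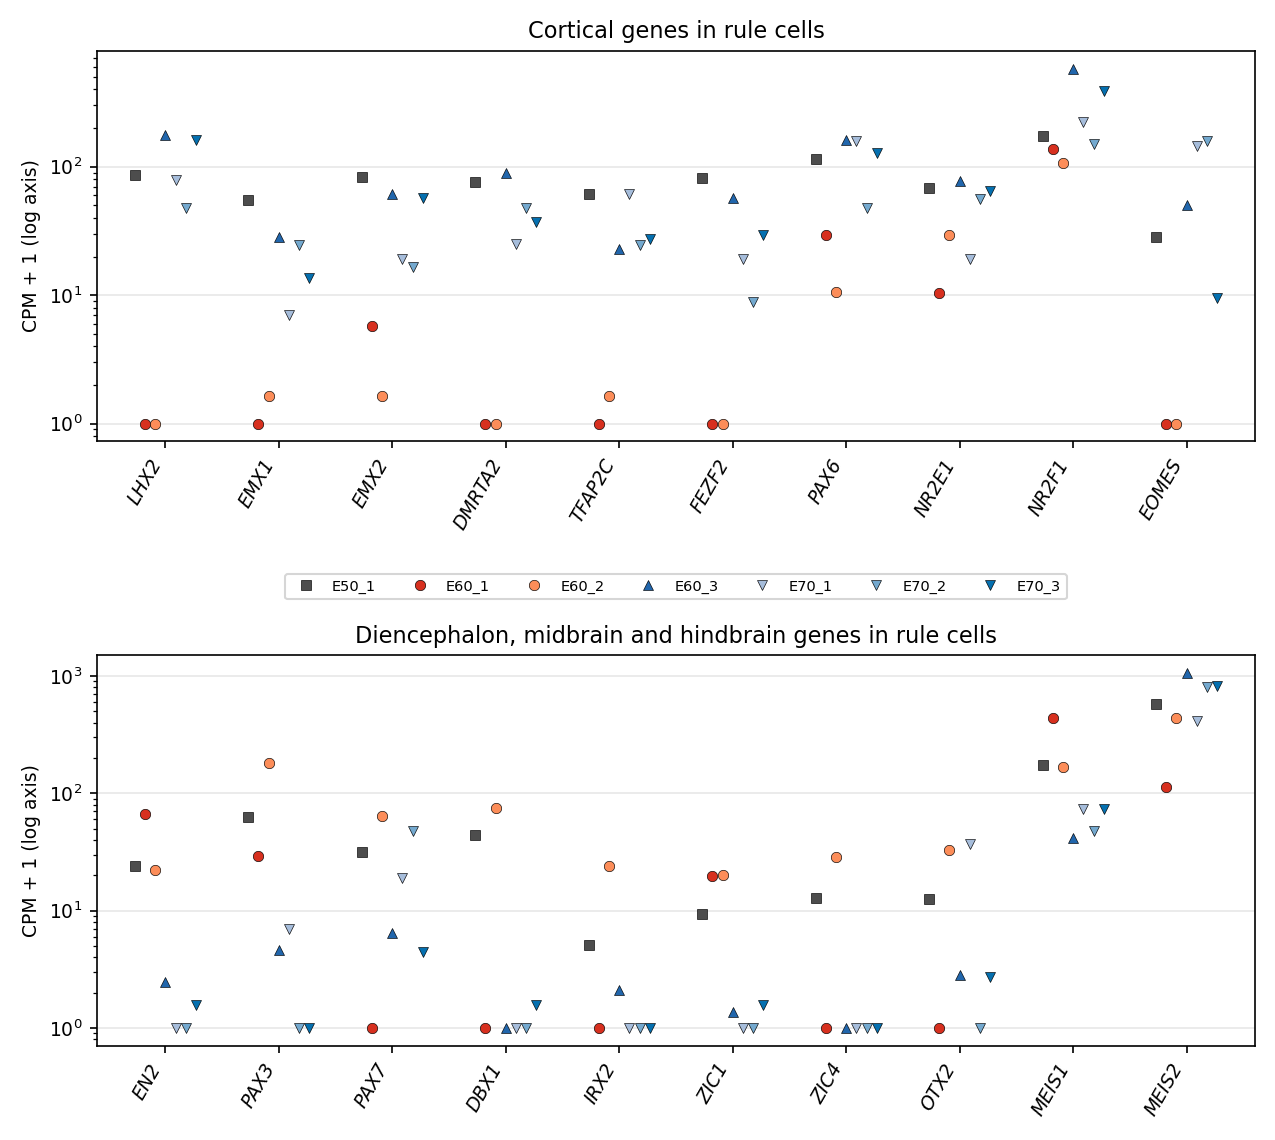
Level of cortical genes (upper plot) and of diencephalon, midbrain and hindbrain genes (lower plot) summed over the rule cells of each fetal whole cell library, as CPM + 1 on a log axis, with 1 point per library. LHX2, DMRTA2, FEZF2 and EOMES are at 0 in E60_1 and E60_2, and EN2 at 66.0 and 21.2 CPM there against at most 1.46 CPM in E60_3 and the E70 libraries.

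Because E60_1 and E60_2 were set apart with results of these data known, the distance between them and the other libraries is described and not tested. A gene was counted as lower when both lay at least 2 times below the lowest of the 5 other fetal whole cell libraries, and as higher when both lay at least 2 times above the highest, after 5 CPM were added to each value. Of 13122 genes that reached 10 CPM in a library, 73 were lower (0.556%) and 40 were higher (0.305%). Of the 12 cortical identity genes that reached this level, 6 were lower, among them LHX2, DMRTA2, TFAP2C, FEZF2 and EMX2, and 1 was higher (LEF1, a Wnt effector). The median log2 ratio of the mean of the pair to the mean of the others was -2.44 over the 12 genes and -0.13 over all genes. All 18 genes of the cortical identity list summed to 320 CPM in E60_1 and 331 CPM in E60_2, against 463 to 1376 CPM in the other 5 libraries. The list as a whole was therefore lower in the pair but not near 0. EMX1 was at 0 and 0.643 CPM in the pair but stayed outside the count, since E70_1 had only 6.01 CPM.

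The cells of E60_1 and E60_2 that were not members were low in the same genes, apart from PAX6. LHX2 was at 3.55 and 2.01 CPM in them, against 39.9 to 84.9 CPM in the remaining cells of the other 5 libraries. FEZF2 was at 0 and 0.0419 CPM against 6.01 to 47.9 CPM. The cells with high AQP4, which met the other limits, held LHX2 at 2.22 and 1.22 CPM. PAX6 was at 29.3 CPM in the other cells of E60_1 and 3.43 CPM in those of E60_2, against 18.6 to 44.4 CPM, so E60_1 lay within the range. LEF1, which was called higher, was at 233 and 629 CPM in the other cells, above the members at 89.5 and 173 CPM.

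Some genes of the midbrain and its neighbours were found in the members, and most of these also in E50_1. EN2, a homeobox gene of the midbrain and hindbrain border (chromosome 18, 2781977 to 2788441), was at 66.0 CPM (14 UMIs) in E60_1 and 21.2 CPM (33 UMIs) in E60_2. It was at 23.0 CPM in E50_1 and at 0 to 1.46 CPM in E60_3 and the E70 libraries, so only E50_1 overlapped with the pair. PAX3, a paired box gene of dorsal progenitors (chromosome 15, 124093803 to 124193041), was at 28.3 CPM (6 UMIs) in E60_1 and 181 CPM (282 UMIs) in E60_2. It was at 61.4 CPM in E50_1 and at 0 to 6.01 CPM in the other 4 libraries. ZIC1, a zinc finger gene of dorsal progenitors, was at 18.8 and 19.3 CPM in the pair, 8.27 CPM in E50_1 and at most 0.570 CPM elsewhere. MEIS1, a TALE homeobox gene, was at 433 and 167 CPM, against 172 CPM in E50_1 and 40.3 to 72.4 CPM elsewhere. Microglia of E60_1 and E60_2 held EN2 at 10.9 and 8.58 CPM, ZIC1 at 4.90 and 12.4 CPM and MEIS1 at 43.9 and 33.9 CPM. The other cells of these libraries held ZIC1 at 13.4 and 21.6 CPM, so the members did not stand above the rest of E60_2.

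E60_2 held further regional genes that gave 0 UMIs in the 49 members of E60_1. DBX1, a homeobox gene of progenitor domains outside the cortex, was at 73.3 CPM in E60_2 and 43.2 CPM in E50_1. PAX7 was at 63.7 CPM in E60_2, ZIC4 at 27.7, IRX2 at 23.2 and OTX2 at 32.2 CPM. These genes were not confined to E60_2, as PAX7 was at 30.8, 18.0 and 47.1 CPM in E50_1, E70_1 and E70_2, and OTX2 at 36.1 CPM in E70_1, above E60_2. For each of these genes the count of 0 in E60_1 allows up to 14.1 CPM, which is below the level in E60_2. The other cells of E60_1 held IRX2 at 12.6 CPM, ZIC4 at 8.58, OTX2 at 6.62, PAX7 at 3.76 and DBX1 at 0.761 CPM. Those of E60_2 held 8.63, 18.6, 22.7, 27.8 and 23.7 CPM in the same order, so IRX2 was not confined to E60_2 either. In microglia of E60_2 DBX1 was at 6.199 CPM and PAX3 at 31.0 CPM, below the members. OTX2 was at 24.8 CPM there, little below its level in the members, and its part from free RNA was not tested. Of the 26 diencephalon, midbrain and hindbrain genes that reached 10 CPM, none was called in either direction against all 5 libraries. Of these 26 genes, 15 had a higher mean in the pair than in the others. The whole list summed to 1145 CPM in E60_1 and 1587 CPM in E60_2, against 1296 to 1587 CPM in the other 5 libraries. As a whole it was therefore not higher in the pair. When E50_1 was left out, EN2, PAX3, MEIS1 and ZIC1 were among the genes higher in both E60_1 and E60_2.

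The regional genes were also followed cell by cell. A cortical set (EMX1, EMX2, LHX2, DMRTA2, FEZF2 and TFAP2C) and a midbrain set (EN2, PAX3, PAX7, DBX1, IRX2, ZIC1 and ZIC4) were put together after their levels had been seen. At 2000 UMIs per cell, a UMI of the midbrain set was found in 126 of 254 members of E60_2 (49.6%) and 4 of 49 of E60_1 (8.16%), and a UMI of the cortical set in 1 member of each. Microglia gave the midbrain set in 14.0% of cells in E60_2 and 3.90% in E60_1, which lies inside the exact 95% interval of the members of E60_1 (2.27% to 19.6%). In E60_3 the cortical set was found in 55.8% and the midbrain set in 0.485% of the rule cells, and in E70_3 in 50.3% and 0.552%. E50_1 held both kinds of cell. There the cortical set was found in 302 of 723 cells (41.8%) and the midbrain set in 165 (22.8%), but both in 4 cells (0.553%), where independent detection would give 9.53%. Without drawing down, both were found in 78 cells (10.8%), where independent detection would give 25.4%, and microglia of E50_1 held the cortical set in 25.2% and the midbrain set in 13.5%. Without drawing down, 209 of 254 members of E60_2 (82.3%) and 14 of 49 of E60_1 (28.6%) held the midbrain set, against 26.6% and 9.60% of microglia.

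**Figure D3:**
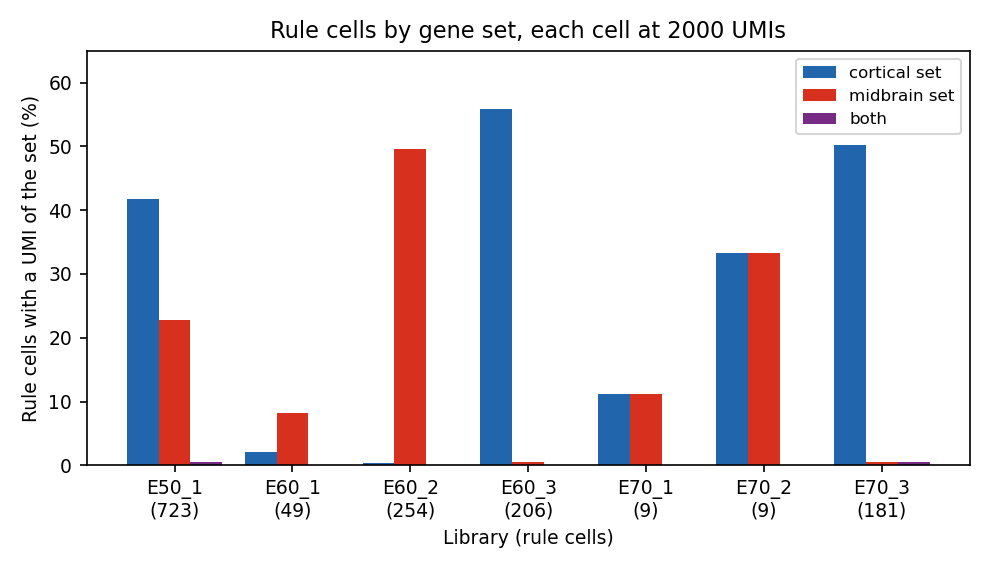
Share of rule cells (percent, axis from 0) with a UMI of the cortical set, of the midbrain set or of both, after each cell was drawn down to 2000 UMIs; the number of rule cells stands under each library. E60_2 shows 49.6% for the midbrain set and 0.394% for the cortical set, E60_3 and E70_3 the opposite order, and E50_1 both sets, with 0.553% of cells in common at this depth.

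Within E60_2 the midbrain genes met in single members near the counts that independent detection would give, above them for some pairs and below for others. PAX3 was found in 152 of 254 members, PAX7 in 72, DBX1 in 48 and EN2 in 28. PAX3 and PAX7 were found together in 48 members, where independent detection would give 43.1, and PAX7 and DBX1 in 13, where it would give 13.6. PAX3 and EN2 met in 22 members against 16.8, and DBX1 and EN2 in 3 against 5.29. In E50_1, where cells with the cortical set were also found, PAX3 and PAX7 met in 86 of 723 cells against 35.0. These counts are a description, since the genes share the depth of each cell.

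The genes higher in both E60_1 and E60_2 belonged to no single list, since none of the 28 astroglial and none of the 23 radial glia genes was among them. QKI, an RNA-binding protein of glial cells, was at 2110 CPM in E60_1 and 2322 CPM in E60_2 and between 636 and 783 CPM in the other 5 libraries, with no overlap. Microglia of E60_1 and E60_2 held QKI at 1006.5 and 1180 CPM. With cells drawn down, it was found in 81.6% and 80.2% of microglia in E60_3 and E70_3. These shares lay above those of the rule cells there (70.4% and 73.5%), while in E50_1 microglia lay slightly below (64.9% against 66.9%). The microglial level was therefore not taken as background for QKI, and its part from free RNA was not tested. EDNRB, the endothelin B receptor of astroglia and neural crest, was at 725 and 633 CPM against 251 CPM in E50_1 and 24.0 to 113 CPM elsewhere, with 72.1 and 114 CPM in microglia. S100A1, a calcium-binding protein, was at 108 and 66.9 CPM against 0 to 21.6 CPM. CTNNA2, the neural alpha-catenin, was at 217 and 376 CPM against 42.1 to 73.6 CPM. TMEM100, a membrane protein induced by BMP signalling, was at 141 and 90.7 CPM against 0 to 25.7 CPM, and was found in 20 of 49 and 87 of 254 members. SLC35G2, ZMAT3, GPAM, CPEB2, FAM84B and CA14 were further genes of this kind, at 23.8 to 75.4 CPM in the pair. Cells of E60_1 and E60_2 that were not members were high in several of these genes too. They held QKI at 1509 and 1545 CPM against 282 to 431 CPM in the same cells of the other 5 libraries, and EDNRB at 414 and 257 CPM against 23.7 to 53.7 CPM. They held S100A1 at 265 and 86.7 CPM, above the members, against 4.84 to 25.8 CPM, and TMEM100 at 91.7 and 57.7 CPM against 2.11 to 16.7 CPM.

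Other higher genes are known from interferon responses or from blood vessels, and some of them rested on few members. IFI6, an interferon-induced gene (chromosome 6, 84852782 to 84858072), had the widest gap, at 132 CPM in E60_1 and 191 CPM in E60_2 against 0 to 7.46 CPM in the other libraries. In E60_1, however, 5 of the 49 members held 96.4% of its 28 UMIs, and microglia held 274 and 826 CPM. ISG12(A), another interferon-induced gene, was at 113 and 109 CPM against 0 to 16.8 CPM, and 4 members held all 24 UMIs in E60_1. CALCRL, the receptor of adrenomedullin in endothelium (chromosome 15, 92233264 to 92332459), was at 75.4 and 86.8 CPM against 0 to 14.4 CPM, and CAV2, a caveolin, at 33.0 and 27.7 CPM against 0 to 6.01 CPM. Cells of E60_1 and E60_2 that were not members lay above the members in the first 3 of these genes. They held IFI6 at 262 and 766 CPM, ISG12(A) at 156 and 446 CPM and CALCRL at 78.7 and 128 CPM. The endothelial gene FLT1 was at 66.0 and 107 CPM in the pair and 9.13 to 39.3 CPM elsewhere. Over the 12 vascular and fibroblast genes, none was called, and the summed level was 165 and 346 CPM in the pair and 110 to 330 CPM in the other 5 libraries. CLDN5 had no row, and ACTA2 was at 0 in both.

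To measure how far these cells carry the higher genes, rule cells with at least 3 UMIs of FLT1, PECAM1, KDR and EMCN or with over 5% of their UMIs in HBB, the beta globin of red cells, were left out of all libraries. This removed 3 of 49 cells in E60_1 and 37 of 254 in E60_2. IFI6 then lay at 21.2 and 50.1 CPM, still above the other libraries (at most 3.87 CPM). ISG12(A) lay at 31.9 and 10.7 CPM, within their range of 0 to 30.9 CPM, and LEF1 at 15.9 and 46.8 CPM, within 6.94 to 30.9 CPM at its lower value. CAV2 and CA14 also fell below the limit of 2 times. CALCRL, TMEM100, EDNRB, S100A1, QKI and CTNNA2 remained higher, and 28 of the 40 genes were shared between both counts. Leaving out only the cells that Scrublet called narrowed the gap of IFI6 from 3.46 to 1.10 log2 units and that of ISG12(A) from 2.39 to 0.78, the latter below the limit of 2 times. Without the cells that hold endothelial or HBB transcripts, 47 of the 73 lower genes were shared, and LHX2 stayed at 0 UMIs. In that same setting DMRTA2 and TFAP2C were no longer counted, as each was at 0 in an E70 library that had 6 cells left.

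**Figure D4:**
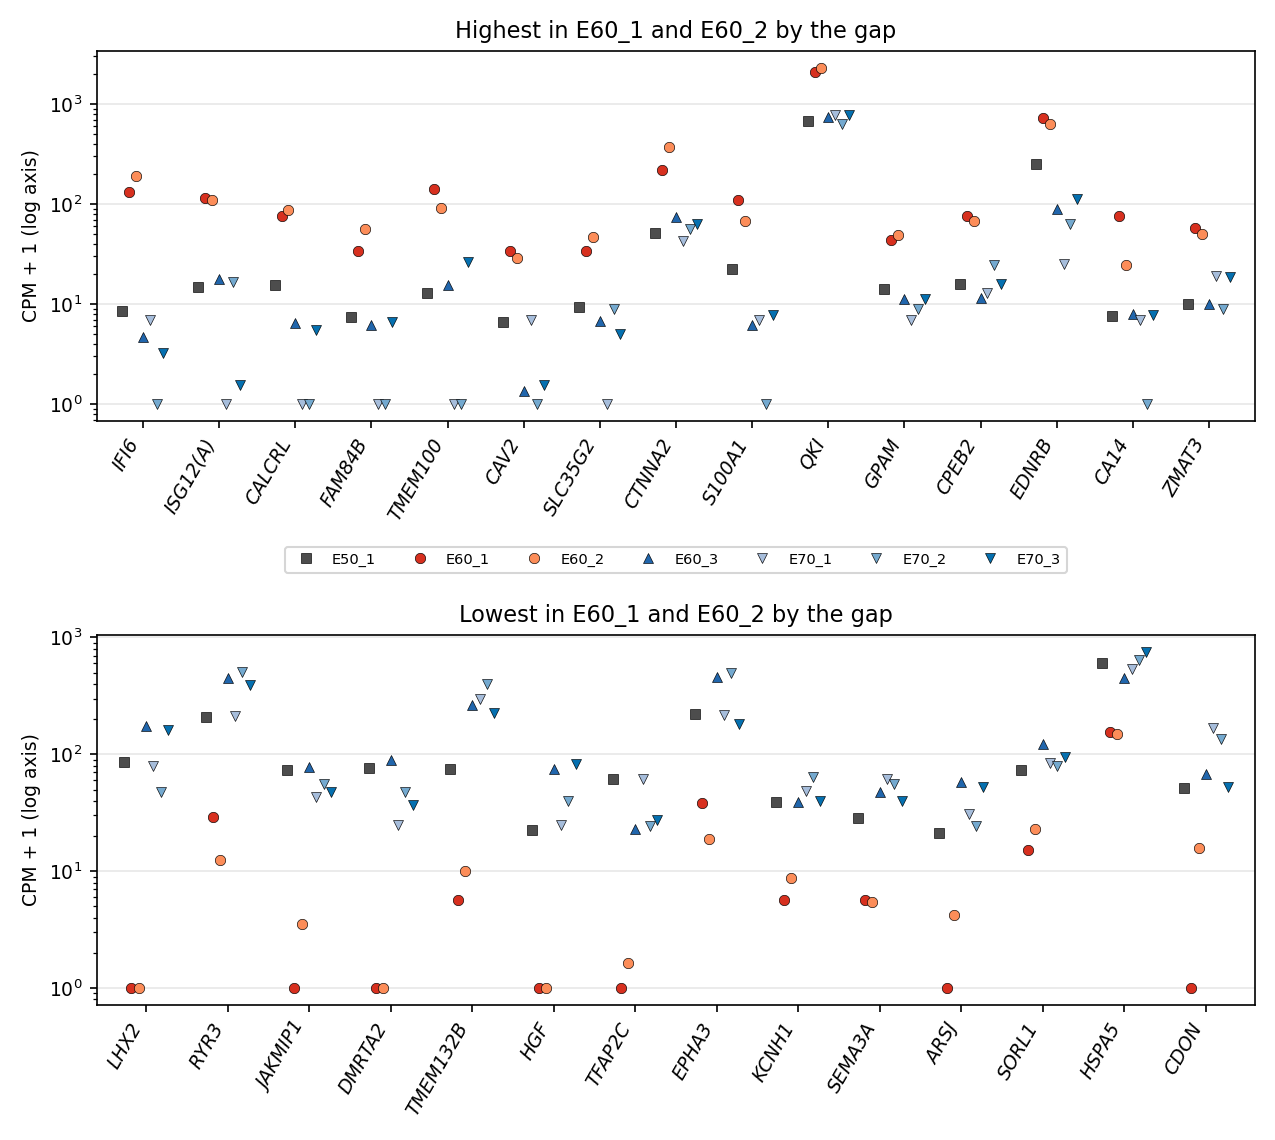
Named genes with the widest gap upward (upper plot) and downward (lower plot) between E60_1 and E60_2 and the 5 other fetal whole cell libraries, as CPM + 1 on a log axis with 1 point per library. In the upper plot both circles lie above all other symbols, from IFI6 at 132 and 191 CPM down, and in the lower plot both lie below, with LHX2 at 0.

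Beside the cortical factors, the lower genes held receptors, channels and a chaperone. EPHA3, an ephrin receptor of axon guidance, was at 37.7 and 18.0 CPM in E60_1 and E60_2 and between 181 and 495 CPM in the other 5 libraries. RYR3, the ryanodine receptor that releases calcium, was at 28.3 and 11.6 CPM against 209 to 503 CPM. TMEM132B was at 4.71 and 9.004 CPM against 74.6 to 401 CPM, and JAKMIP1 at 0 and 2.57 CPM against 42.1 to 77.3 CPM. HGF, the hepatocyte growth factor, gave 0 UMIs in both libraries and lay between 21.7 and 81.0 CPM elsewhere. HSPA5, the main chaperone of the endoplasmic reticulum, was at 155 and 149 CPM against 453 to 757 CPM. The cells of these libraries that were not members held HSPA5 at 152 and 165 CPM, against 232 to 567 CPM in the other libraries. With cells drawn down to 2000 UMIs the gap of HSPA5 went from -1.51 to -0.12 log2 units and was no longer counted, and HGF, DMRTA2 and TFAP2C were no longer counted either, each with a gap of 0. SORL1, SEMA3A, KCNH1, ARSJ, CDON and TFAP2C were also among the genes with the widest gap downward.

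Pathways that act in radial glia were described by lists. In the Hedgehog, Wnt, FGF and BMP list 33 genes reached 10 CPM, of which GLI2 and CDON were lower and LEF1 was higher. CDON, a co-receptor of Hedgehog, gave 0 UMIs in E60_1 and was at 14.8 CPM in E60_2, against 50.7 to 168 CPM. GLI2, a transcription factor of this pathway, was at 66.0 and 64.96 CPM against 143 to 291 CPM. GLI3, mainly a repressor of the pathway, was at 155 and 335 CPM against 361 to 927 CPM. RSPO3, a Wnt agonist, was at 4.71 CPM in E60_1 and 94.5 CPM in E60_2, and 6.27 to 25.2 CPM elsewhere. Among the 13 Notch genes none was called in either direction. NOTCH1 was at 66.0 and 61.1 CPM against 23.6 to 52.3 CPM, and HEY1, a target of Notch, at 89.5 and 42.4 CPM against 17.6 to 35.2 CPM.

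Genes of maturing astroglia were present in the members, mostly without a gap to E50_1. Of 28 genes that reached 10 CPM, none was called in either direction, and 19 had a higher mean in the pair than in the others. SPARCL1, a matrix protein of astrocytes, was at 1055 and 1234 CPM in E60_1 and E60_2, at 758 CPM in E50_1 and at 31.9 to 42.5 CPM in E60_3 and the E70 libraries. In microglia it was at 273 and 704 CPM, and without the cells that hold endothelial or HBB transcripts it was at 579 and 562 CPM in the pair and 354 CPM in E50_1. SLC6A11, a GABA transporter of astrocytes, was at 221 and 73.96 CPM against 15.7 to 41.1 CPM. CST3, cystatin C, was at 1941 and 3528 CPM against 54.2 to 1108 CPM, but microglia held 13905 and 25600 CPM of it, and its part from free RNA was not tested. Cells of E60_1 and E60_2 that were not members lay above the members in both genes. They held SPARCL1 at 1804 and 4112 CPM and CST3 at 4980 and 11074 CPM. CRYAB, a small heat shock protein, was at 75.4 and 75.2 CPM in the pair against 487 and 994 CPM in E60_3 and E70_3, with 217 CPM in E50_1 and 18.0 and 0 CPM in E70_1 and E70_2.

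A gene of dividing cells was found in both libraries at shares within the range of the others. TOP2A, a topoisomerase of dividing cells, was found in 9 of 49 members of E60_1 (18.4%, 8.76% to 32.02%) and 61 of 254 of E60_2 (24.0%, 18.9% to 29.8%) at 2000 UMIs per cell. MKI67, which was to be counted with it, had no row in the files. Microglia gave 5.51% and 9.62%. The share was 17.5% in E60_3, 44.4%, 0% and 19.9% in E70_1, E70_2 and E70_3, and 25.7% in E50_1. The E60 libraries averaged 19.95% ± 3.55 (SD, n = 3) and the E70 libraries 21.4% ± 22.3 (SD, n = 3), a difference of -1.49 percentage points (two-sided exact permutation test, p = 0.8, smallest possible 0.1). Without E70_1, whose 9 cells held 4 with TOP2A, the difference was 10.0 percentage points. Of the 48 genes of the G2 and M phases that reached 10 CPM, none was called, and CDK1, the kinase that drives mitosis, was at 264 and 271 CPM against 0 to 156 CPM.

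E60_1 and E60_2 were not alike in all genes. With 1 library each there is no test, and ratios are given with exact intervals that cover counting error. Of the 13122 genes, 783 were at least 2 times higher in E60_1 and 989 in E60_2 after 5 CPM were added. SULF1, an enzyme that edits heparan sulphate, was at 207 CPM (44 UMIs) in E60_1 and 5.79 CPM (9 UMIs) in E60_2, a ratio of 35.8 (17.3 to 83.4), and was found in 14 of 49 members. Genes of motile cilia, RSPH1, FAM216B, CFAP69 and CFAP77, were 9.77 to 18.7 times higher in E60_1. However, 5 members of E60_1 held 81.3% of the 91 UMIs of these genes with CFAP126 and C2orf70, and a single cell held 40. TPPP3, a tubulin-binding protein of ciliated cells, was at 245 and 34.7 CPM (ratio 7.05, 4.73 to 10.5). FABP7 was at 3528 and 1439 CPM (ratio 2.45, 2.25 to 2.66). The oligodendroglial genes MBP, BCAS1, NKX2-2 and SCRG1 gave 96 UMIs in E60_1, of which 5 members held 60.4%. A UMI of these genes was found in 25 of the 49 members (51.0%), and 11 members held at least 3. The share was 22.8% in E60_2, and 35.4% and 51.9% of the rule cells in E60_3 and E70_3. These cells were not drawn down and differed in depth, with a median of 3680 UMIs in E60_1, 11052 in E60_3 and 8909 in E70_3. Scaled to CPM, the oligodendroglial list summed to 349 CPM in E60_1 and 104 CPM in E60_2. It lay between 46.9 and 204 CPM in the 5 other fetal whole cell libraries.

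In the other direction, the genes higher in E60_2 belonged to no single list. The Hedgehog, Wnt, FGF and BMP list summed to 2354 CPM in E60_2 and 2063 CPM in E60_1. WNT5B, a Wnt ligand, was at 154 CPM (239 UMIs) in 84 of its 254 members, against 9.42 CPM (2 UMIs) in E60_1. BOC, a co-receptor of Hedgehog, was at 195 and 33.0 CPM, and PTN, a secreted growth factor of radial glia, at 13487 and 5111 CPM. IFITM3 was at 110 CPM in E60_2 (171 UMIs in 81 members) and at 0 UMIs in E60_1, where 0 allows up to 14.1 CPM. PYY, a gut and brain peptide, was at 67.5 CPM, but 5 cells held 97.1% of its 105 UMIs. HBB was at 29891 CPM in E60_2 and 2572 CPM in E60_1. The median member held 5 UMIs of it in E60_2 and 3 in E60_1, while 26 members of E60_2 and 1 of E60_1 had over 5% of their UMIs in it. Without such cells and those with endothelial transcripts, HBB was at 944 CPM in E60_2 and 834 CPM in E60_1. As HBB itself was used to leave cells out, a fall was fixed in advance.

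The most abundant genes of the members outside the mitochondrial and ribosomal ones were PTN, CST3, HBB and genes of the cytoskeleton and of metal binding. TMSB4X, which binds actin monomers, was at 5808 CPM in E60_1 and 5786 CPM in E60_2, against 37514 and 27956 CPM in microglia. MT3, the brain metallothionein, was at 2332 and 5526 CPM in the members and 1990 to 4956 CPM in the other 5 libraries. The tubulin TUBA1B was at 4131 and 3250 CPM against 1327 to 8155 CPM elsewhere, and TUBB2B at 3557 and 2739 CPM against 1791 to 5422 CPM. UBB, a ubiquitin gene, DBI, which binds acyl-CoA, and TMSB10 were at 3118 to 4089 CPM in the pair, and only MT3 and TMSB4X reached beyond the range of the other libraries among these 7 genes, each by a small margin.

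**Figure D5:**
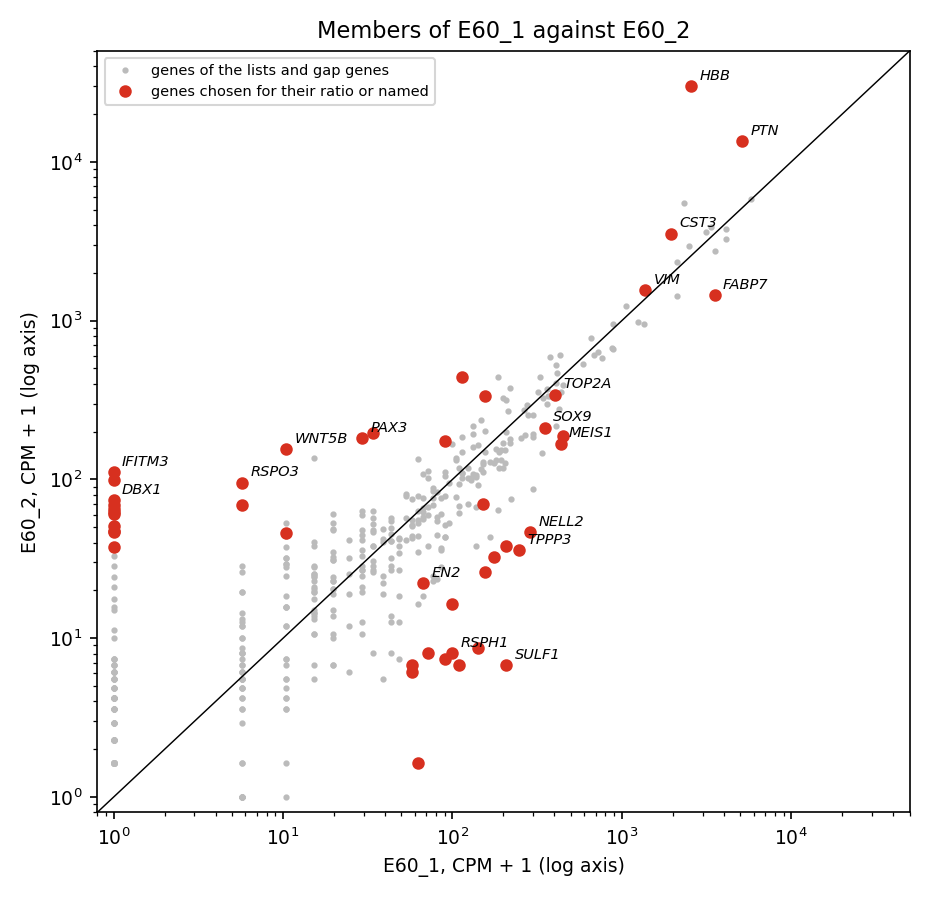
Level of each gene in the members of E60_1 (horizontal, CPM + 1, log axis) and E60_2 (vertical, CPM + 1, log axis), with 1 point per gene and the line of equal level; red points are genes chosen for their ratio or named in the text. VIM lies near the line, SULF1 far below it at 207 and 5.79 CPM, and DBX1 and IFITM3 at 0 in E60_1.

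The comparison of E60 with E70 as labelled found no gene past the threshold. It used the libraries with at least 10 rule cells, which were E60_1, E60_2, E60_3 and E70_3, so the lone E70 library was assumed to vary like those of E60. edgeR's quasi-likelihood test on the summed counts called 0 of 12609 genes higher and 0 lower at E60 (0% in each direction at an adjusted p under 0.05). At an unadjusted p under 0.05, 151 genes were higher and 50 lower, and DESeq2 called 2. PAX3 gave 0 UMIs in E70_3, which allows up to 1.71 CPM, so its fitted difference is no measured fold (adjusted p = 0.999). LHX2 was 1.31 lower (log2 difference -1.31, SE 1.68, adjusted p = 0.999). For these genes E60_3 was close to E70_3 and far from E60_1 and E60_2, with LHX2 at 175 and 159 CPM and PAX3 at 3.66 and 0 CPM. Each library was also left out in turn. Without E60_3, 783 genes were higher and 911 lower, in a fit that sets 2 libraries against 1, and without E60_1 or without E60_2 no gene passed.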

How the data were processed

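The authors captured pig MEC cells on the 10x Genomics version 2 platform, mapped reads to pre-mRNA of Sscrofa11.1 with STAR and Cell Ranger (version as listed in the submitters' notes, 2.20) and the Ensembl 94 annotation, and deposited 1 table of raw counts (UMIs per gene and cell, 22452 rows) per library. Rows named by an Ensembl ID took a symbol from the reference table where it gave one. Coordinates are those of RefSeq for Sscrofa11.1. Rows without a symbol kept their ID and stayed in the library sizes and tests.

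Counts were summed over the rule cells of each library and scaled to CPM. The 7 fetal whole cell libraries hold 6314174 to 55755512 UMIs. E60 and E70 were compared with edgeR 4.0.16 (TMM, filterByExpr, quasi-likelihood, Benjamini-Hochberg) in R, with DESeq2 as an alternative, and shares by exact permutation over libraries. Where nothing says that libraries are from separate litters, p-values measure the spread between libraries. The count test and the gap count were tested on simulated counts.

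The members and the gene lists were chosen with earlier results of these data known. Named were the rule genes, up to 12 genes per list with at least 20 CPM and the widest ratio, the 15 with the widest gap in each direction, the 10 widest changes past the threshold between E60 and E70 (none passed), and the 10 most abundant outside mitochondrial and ribosomal genes. Other genes, and the pairs and sets named as such, were chosen after their values were seen. Some genes that meet these rules are not reported here.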

Additional observations from a re-analysis of the deposited data

How the results depend on the processing

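The count of genes called between E60 and E70 depended on single libraries. It was 0 and ranged from 0 to 1694 when each E60 library was left out in turn, the highest without E60_3. It was 2 without a filter on low counts and 2 with DESeq2. In settings chosen after the data were seen, with all 3 E70 libraries, it was 0 with edgeR, 5 without E60_3, 588 without E70_3 and 351 with DESeq2, while it stayed at 0 without any of the other 4 libraries. No pairing by replicate number was seen, as the deviations of equally numbered E60 and E70 libraries correlated by -0.0104, 0.0088 and 0.036. With 9 rule cells each in E70_1 and E70_2, these values cannot exclude a pairing. According to the paper, libraries of different stages were pooled for sequencing, and an effect of these pools was not tested. A fit with all 6 libraries and the replicate number as a block called 0 genes. The fit with a block, and fits without E70 libraries or with at least 5 UMIs of the rule genes, could not be run on the 4 libraries of the design, as they left no residual degrees of freedom, no E70 library or 1 cell in E60_1.

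The 40 higher genes became 61 with 1 CPM added and 3 at 4 times, and the 73 lower genes 213 and 8. Leaving out a library, they ranged from 43 to 269 and from 74 to 554. Without E50_1 they were 128 and 288, without E60_1 118 and 172, and without E60_2 269 and 554. With cells thinned to 2000 UMIs the lower genes were 39, of which 21 were among the 73, and the higher genes 39, of which 17 were among the 40. Against only the libraries with at least 10 rule cells, chosen after the data were seen, they were 65 and 155, and with at least 2 UMIs of the rule genes 67 higher. With thinned cells the gap turned sign for CA14 (-0.65), ZMAT3 (-1.99), KCNH1 (1.75), SEMA3A (0.48) and ARSJ (0.48, log2 units), and without cells that hold endothelial or HBB transcripts for ISG12(A) (-1.20) and TFAP2C (0.22). The cause was not tested, but E70_1 and E70_2 hold 9 rule cells each. The difference in the share of cells ranged from 0.922 to 4.44 percentage points without single libraries, and that in TOP2A from -12.2 to 10.0.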
